A study of Mus musculus with 14 samples.

Results

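The genes described here are 90 genes of the cell division cycle, among 10210 genes listed in a table of raw counts from sorted mouse natural killer (NK) cells. They were chosen by symbol: the replicative helicase (Mcm2 to Mcm7), origin recognition (Orc), GINS and replication factor C (Rfc) subunits, centromere proteins (Cenp), kinesins (Kif), Cdca, Bub and Aurk genes, both ribonucleotide reductase genes (Rrm1, Rrm2), the cyclins A2, B1, B2, E1 and E2, and 15 named genes. Of those 15 symbols 14 were matched, and Cdc6 had no row. The choice by symbol also took in 8 kinesins of intracellular transport, which are given as a class of their own. It took in Aurkaip1 as well, a protein of the mitochondrial ribosome that is not itself an Aurora kinase.

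Bulk RNA was sequenced from the 3' end of polyA transcripts. All mice were BALB/c, with an age of 8 weeks in the labels, which give the sex (female) only for the injected mice. Healthy spleen NK cells (3 samples) came from mice without a tumour, tumour-bearing spleen NK cells (4 samples) from mice that had received 100000 cells of the line 4T1-GFP in the mammary fat pad at that age, and tumour NK cells (4 samples) from such tumours. 4T1 is a mammary carcinoma line that grows in BALB/c mice, here marked with green fluorescent protein. All 11 samples were enriched magnetically and sorted with the gate GFP-EPCAM-CD45+CD3-CD31-CD14-NKp46+. Tumours were digested with collagenase A and DNase for 20 min at 37 °C, while spleens were mashed and their red cells lysed on ice, so tissue and handling cannot be told apart in the tumour comparisons. The design calls the replicates independent, but the labels name no animals and do not say whether a spleen and a tumour came from the same mouse, so p-values measure the spread between these samples. The series also holds 3 libraries of tumour stromal cells in a table of their own, which enter no comparison. In bulk RNA, fewer dividing cells and less of these RNAs per cell cannot be told apart.

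Before a cell divides it copies its genome once. The origin recognition complex loads the Mcm2 to Mcm7 helicase onto origins, Cdc45 and GINS switch the helicase on, and the clamp Pcna, loaded by replication factor C, holds the polymerases to DNA. Cyclins bound to cyclin-dependent kinases drive the entry into S phase and mitosis, where kinetochores on the centromeres, spindle motors, the Aurora B complex and the anaphase-promoting complex part the chromosomes. Splenic NK cells of adult mice are mostly resting, and immature NK cells and NK cells stimulated by cytokines divide more.

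Values are CPM, the usual depth-scaled count, with scaling by TMM (trimmed mean of M values, which corrects for a few abundant genes), in the order of replicate numbers. Differences are log2 fold changes with their standard error (SE), and genes were called with edgeR's quasi-likelihood test where p, adjusted by Benjamini and Hochberg's method across the 8471 genes that passed a count filter, was under 0.05. Library totals ran from 559688 to 1966963 counts, and 3 counts, the limit that a count of 0 allows, stood for 1.53 to 5.36 CPM, a limit of counting error only. The second principal component (15.3% of the variance) split the spleen libraries across their groups, with healthy replicate 1 and tumour-bearing replicates 1 and 2 on one side. All 9 NK markers on a list were present, and their sum on library totals was lower in every tumour library (17851 to 21456 CPM) than in every spleen library (25686 to 31627 CPM). Gzma made up most of that sum, and Eomes, Klrk1 and Klrd1 overlapped between tumours and spleens. Tumour replicate 3 stood apart in macrophage markers: the 8 listed of 11 (Lyz2, Csf1r, Cd68, C1qa, C1qb, C1qc, Cd14 and Apoe) summed to 233.9 CPM there, 40.9 to 54.7 in the other tumour libraries and 10.7 to 28.5 in the spleens, where Csf1r was at 0 throughout.

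NK cells from the spleens of tumour-bearing mice held more RNA of cell-cycle genes than NK cells from healthy spleens. The 90 genes together took 0.291% to 0.309% of the counts of a healthy spleen library, 0.333% to 0.357% of a tumour-bearing spleen library and 0.262% to 0.292% of a tumour library. By TMM the sums were 2791.9 ± 121.7 CPM (SD, n = 3), 3426.8 ± 124.6 (n = 4) and 2978.4 ± 183.2 (n = 4), and the 4 tumour-bearing spleen libraries lay above all 7 others. On raw totals the healthy mean was 2983.9 and the tumour mean 2765. For the sum of all 90 genes the order of these means therefore depended on scaling. Without the 8 transport kinesins the tumour mean was the higher by TMM (2605.5 against 2180.3 CPM) and on raw totals (2418 against 2326.7). On raw totals the tumour and healthy libraries still overlapped. The group mean was highest in tumour-bearing spleens for 62 of the 90 genes, in tumours for 18 and in healthy spleens for 10. It was lowest in healthy spleens for 59, in tumours for 24 and in tumour-bearing spleens for 7. Both tallies include the 19 genes too low to be tested.

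**Figure D1:**
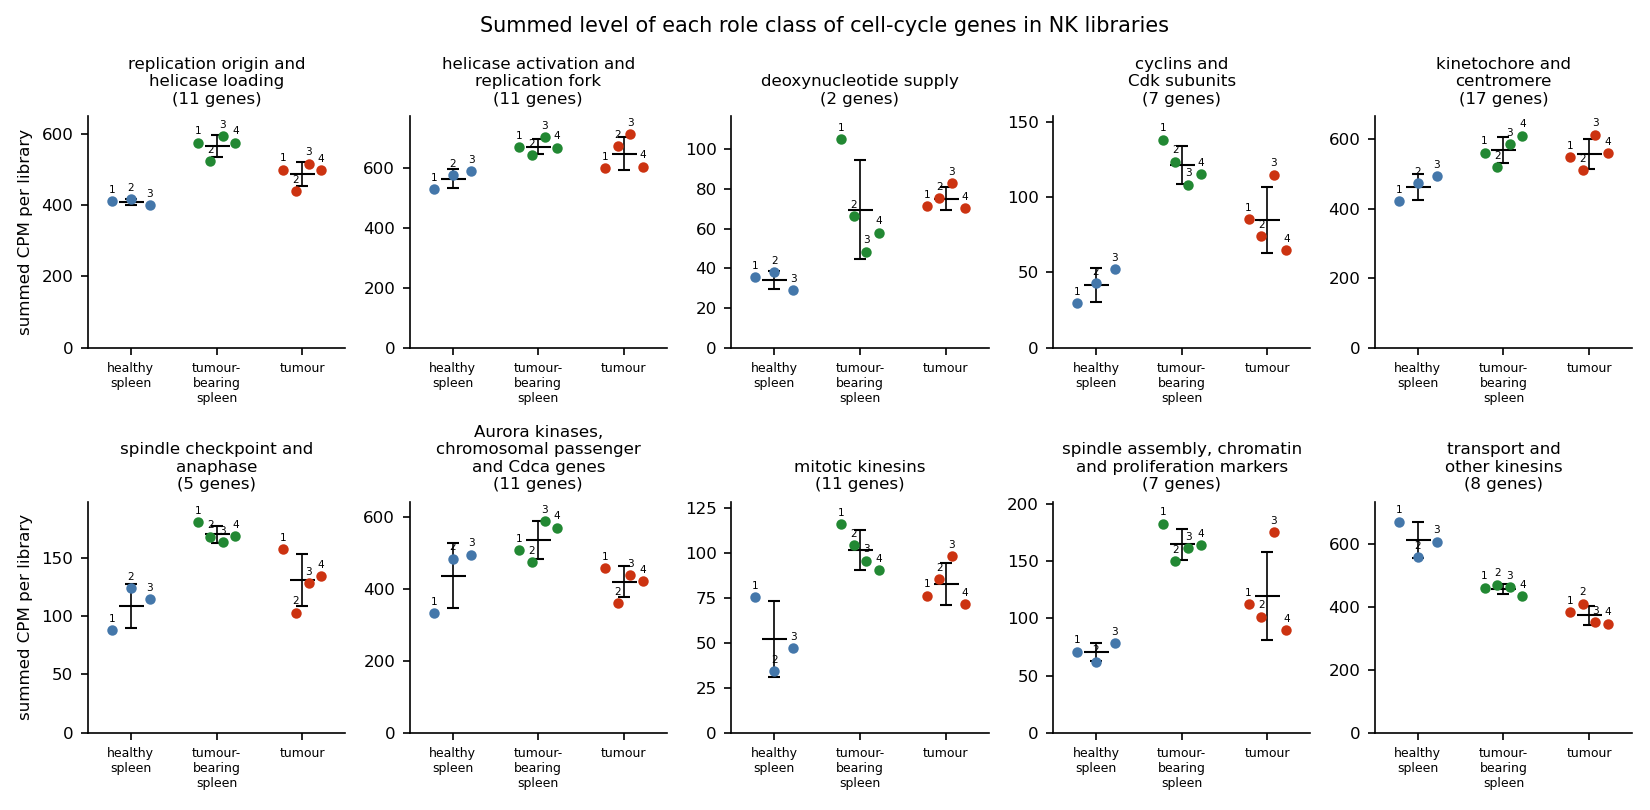
Summed CPM (TMM scaling) of each role class in the 11 NK libraries, with each library as a point numbered by replicate and the group mean with SD as bars. Cyclins and proliferation markers were highest in the 4 tumour-bearing spleen libraries apart from tumour replicate 3, and transport kinesins were lowest in tumours.

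Both spleen groups were sampled as controls for the NK cells of tumours, and they were first compared with each other. In tumour-bearing against healthy spleens 16 cell-cycle genes rose and 1 fell. Those that rose were Top2a, Ube2c, Birc5, Kif11, Mxd3, Cdc45, Mki67, Cks1b, Kif22, Mcm6, Ccnb2, Cdca3, Ccna2, Gins2, Cdca8 and Cenpn, from the loading of the helicase to the end of mitosis, by 0.79 to 2.72 on the log2 scale. The gene that fell was Kif21b, a motor of axonal and cytoskeletal transport. Of the 90 genes 71 passed the filter on low counts, so the called genes were 22.5% higher and 1.41% lower of those tested, where 1.23% of all genes were called higher and 0.354% lower (1.58% in either direction). The median log2 fold change was 0.642 over the 71 and −0.004 over all genes tested. At an unadjusted p under 0.05, 38 of the 71 were higher and 1 lower, against 571 and 380 of the 8471 genes tested. Groups did not overlap in CPM, with tumour-bearing above healthy, for 35 genes, against 6.52% of all genes tested, and with tumour-bearing below for 2, against 5.71% (12.2% in either direction).

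Single healthy libraries decided many of these calls. Without healthy replicate 2 Gins2, Top2a and Ube2c kept theirs, and 14 of the 17 calls were lost at adjusted p between 0.0714 and 0.292. Without healthy replicate 3 there were 9 higher genes. Healthy replicate 2 was the deepest healthy library (1775355 counts, against 559688 and 1210219). None of the 17 changes reversed under any alternative. The change of Mki67 stayed within 1.43 to 1.62 and that of Kif22 within 1.31 to 1.43, while Ccna2 ran from 2.4 to 3.6 and Gins2 from 1.6 to 3.1. In a fit of the spleen libraries with their split as a block 30 genes were higher and 1 lower, where 5.35% and 2.99% of all genes were, and all 17 calls stayed. That split was read from these same libraries and not from a label. The fit may therefore understate their spread and give adjusted p that are too small. For all 16 genes every tumour-bearing library was above every healthy one, so any split of these libraries gives that order on each side. T cell markers moved with this comparison: the 3 listed of 10 (Cd3d, Cd3g and Cd4) summed to 50.03 to 79.32 CPM in healthy spleens, 105.7 to 143.8 in tumour-bearing spleens and 59.2 to 98.1 in tumours. Cd4 had 1 to 7 counts a library, and the part of T cells in the result was not tested.

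**Figure D2:**
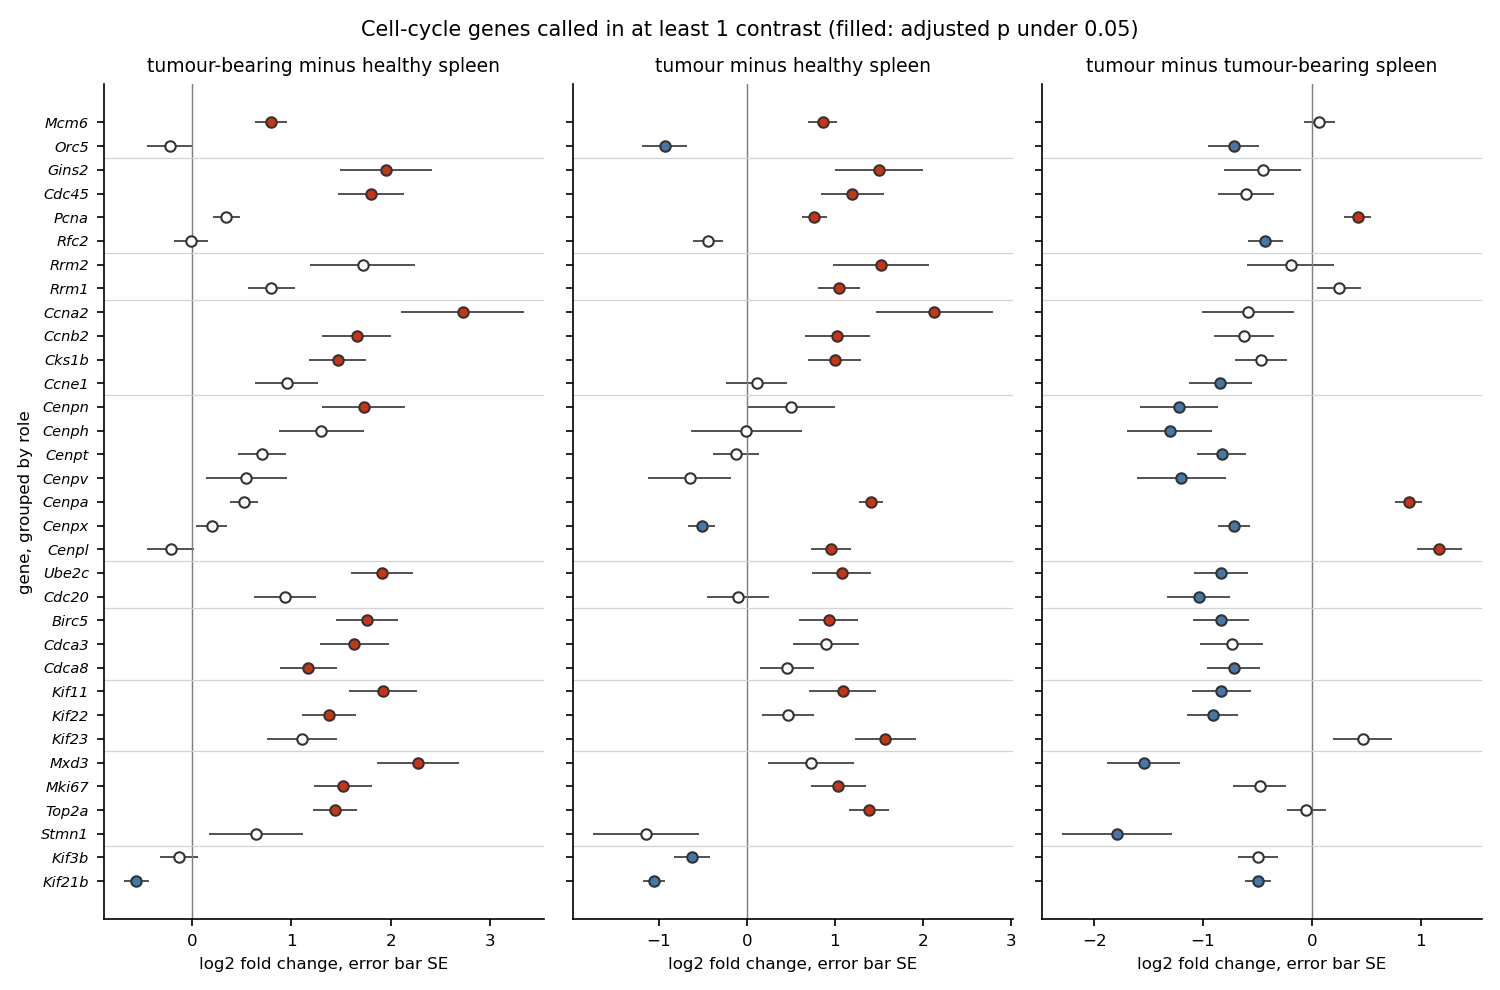
Log2 fold changes (x axis, bars are SE) of the 33 genes called in at least 1 comparison, grouped by role and divided by grey lines, with filled points at adjusted p under 0.05 (red higher, blue lower). Red points from Mcm6 to Top2a fill the left panel, and the right panel holds blue points in most roles beside 3 red ones, Pcna, Cenpa and Cenpl.

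Genes of late S phase and mitosis are known to share promoter elements: the CHR element (TTTGAA or TTCGAA, bound by DREAM and MuvB complexes) and CCAAT boxes (bound by NF-Y), while many replication genes hold E2F sites. In promoter windows of RefSeq on GRCm38.p6, 250 bases before the start site and both strands searched, 73 of the 90 genes matched with 85 windows. CHR letters stood in 28.2% of these windows and in 17.1% of all 32851 windows. E2F letters were read as TTCCCGC and, with the middle bases varied, as the form TTGGCGC, as the form TTCGCGC and as the form TTGCCGC. They stood in 28.2% of the windows of these genes and in 7.89% of all. Among the 16 genes higher in tumour-bearing spleens, which were chosen by their fold change, 14 matched with 1 window each. Of these 9 held both CHR and CCAAT letters (64.3%, against 24.7% of the windows of all 90 genes and 6.02% of all windows), 12 held CCAAT (85.7%, against 64.7% and 33.8%) and 3 held E2F letters (21.4%). In the 15 windows of genes lower in tumours than in tumour-bearing spleens, a set that shares genes with the 16, 33.3% held both CHR and CCAAT and 53.3% held CCAAT. The 5 windows of 4 matched transport kinesins held no CHR letters. A match describes letters and shows no binding. The 150 bases before the start site are printed for 5 of these genes. They show the mitotic layout in Kif11, Mki67 and Top2a and E2F letters in the helicase gene Mcm6. In Ccnb2 they hold CCAAT boxes and no CHR letters. Bases after the start site were not searched, so CHR letters of Ccnb2 or other genes there would be missed. CCAAT, CHR and E2F letters, read on either strand, are in capitals, and each sequence runs 5′ to 3′ on the strand of its gene.
Ccnb2: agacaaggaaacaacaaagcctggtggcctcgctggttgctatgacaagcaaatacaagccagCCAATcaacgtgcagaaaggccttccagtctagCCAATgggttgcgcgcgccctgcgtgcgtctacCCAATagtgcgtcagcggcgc
Kif11: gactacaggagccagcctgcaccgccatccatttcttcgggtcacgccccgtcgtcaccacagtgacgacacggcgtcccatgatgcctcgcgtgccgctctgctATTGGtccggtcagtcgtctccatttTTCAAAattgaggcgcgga
Mki67: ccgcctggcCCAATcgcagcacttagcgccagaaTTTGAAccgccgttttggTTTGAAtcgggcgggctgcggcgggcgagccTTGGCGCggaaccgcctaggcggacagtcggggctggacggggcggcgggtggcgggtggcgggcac
Top2a: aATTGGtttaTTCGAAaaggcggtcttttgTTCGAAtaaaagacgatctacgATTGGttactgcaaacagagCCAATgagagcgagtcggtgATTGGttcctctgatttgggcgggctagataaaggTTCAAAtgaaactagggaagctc
Mcm6: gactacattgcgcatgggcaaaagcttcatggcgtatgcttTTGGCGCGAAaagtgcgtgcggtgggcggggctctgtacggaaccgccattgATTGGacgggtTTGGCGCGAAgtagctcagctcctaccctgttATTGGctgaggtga
The windows lie at chr9:70421555-70421704 (minus strand), chr19:37376232-37376381 (plus strand), chr7:135716380-135716529, chr11:99024190-99024339 and chr1:128359706-128359855 (all minus strand), and the annotation GENCODE M21 placed no exon in any of them. In Ccnb2 the CCAAT boxes begin 87, 54 and 21 bases before the start site. In Kif11 the CHR letters begin 19 bases before the start and the CCAAT box 45 bases before it. Mki67 has a CCAAT box at 141 bases, CHR letters at 116 and 98 bases and E2F letters at 67 bases before the start. Top2a has CHR letters at 140, 120 and 23 bases and CCAAT boxes at 149, 98, 78 and 58 bases. In Mcm6 each run of 10 capitals, at 109 and 46 bases, holds 2 overlapping E2F matches on opposite strands, and CCAAT boxes stand at 57 and 14 bases.

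The comparison of tumour NK with tumour-bearing spleen NK asks how NK cells inside the tumour differ from those elsewhere in mice with the same disease. Here 3 cell-cycle genes rose, Pcna, Cenpa and Cenpl, and 17 fell. The genes that fell were Mxd3, Stmn1, Kif22, Kif11, Cdc20, Ube2c, Birc5, Cdca8, Ccne1, Rfc2, Orc5, Kif21b and the centromere genes Cenph, Cenpn, Cenpt, Cenpv and Cenpx. The 28.2% called of the 71 tested are close to the 29% of all genes called. By direction, 4.23% were higher and 23.9% lower, against 15.8% and 13.2% of all genes. The median was −0.296, against 0.001 over all genes. Groups did not overlap for 4 genes higher and 17 lower in tumours, where 16.5% and 13.3% of all genes did not (29.7% in either direction). Without tumour-bearing replicate 3, or without tumour replicate 1, 11 genes were lower, and with DESeq2 11 were. Of the 20 calls, 8 held under every alternative that tested them (Cenpa, Cenpl, Cenpt, Cenpx, Mxd3, Stmn1, Cdc20 and Kif21b). Upper-quartile scaling, which moved the median of all genes by −0.099, gave 2 higher and 24 lower genes, and 12.9% and 18.1% of all genes.

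Tumour NK cells were also set against NK cells of mice that bore no tumour. Here 17 cell-cycle genes rose (Top2a, Cenpa, Pcna, Mcm6, Kif23, Rrm1, Cenpl, Mki67, Cdc45, Cks1b, Ube2c, Ccna2, Gins2, Kif11, Ccnb2, Birc5 and Rrm2) and 4 fell (Kif21b, Orc5, Cenpx and Kif3b). The shares were 23.9% higher and 5.63% lower of the 71 tested, where 16.5% and 14% of all genes were (30.5% in either direction). The median was 0.442, against 0.016 over all genes, and upper-quartile scaling moved that of all genes by −0.101 and gave 13 higher and 7 lower cell-cycle genes. Groups did not overlap for 16 genes higher and 5 lower in tumours (18.5% and 16.3% of all genes, 34.8% in either direction). This comparison shares the tumour libraries with the second and the healthy libraries with the first, so the calls of the 3 are not independent of each other. Under every alternative that tested them, 8 of its 21 calls held (Rrm1, Pcna, Cenpa, Cenpl, Kif23, Mcm6, Top2a and Kif21b), and those of Kif11, Birc5 and Ccnb2 were lost in 9 of 12, 8 of 13 and 8 of 13.

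Tumour replicate 3, the library with the highest macrophage markers, decided much of this comparison. It was the highest tumour library for 44 of the 90 genes and for 14 of the 16 genes that rose in tumour-bearing spleens. Without it 7 genes were higher against healthy spleens, Cenpa, Pcna, Top2a, Mcm6, Kif23, Rrm1 and Cenpl. Against tumour-bearing spleens 19 were then lower, where 12.4% of all genes were. Without healthy replicate 2 there were 11 higher genes. Without healthy replicate 3 or tumour replicate 2 the lower genes numbered 1 and 2. Other lists moved with both tumour comparisons. Neutrophil markers (4 listed of 10: S100a8, S100a9, Ngp and Retnlg) summed to 55.5 to 153 CPM in tumours and 0.56 to 14.25 in spleens, where Retnlg was at 0 throughout. Of these, Ngp was not higher in tumours. Markers of immature NK cells (6 of 6: Cd27, Kit, Ltb, Emb, Tcf7 and Ctla2a) summed to 3758 to 4067 CPM in tumours and 1824 to 2463 in spleens. Ctla2a carried most of that rise, and Cd27 and Ltb overlapped between tumours and spleens. Those of mature NK cells (6 of 6, among them Itgam, Klrg1 and S1pr5) summed to 543.8 to 692.4 CPM in tumours and 1881 to 2647 in spleens. Carcinoma markers (2 listed of 7, Epcam and Cdh1) summed to 25.0 to 51.0 CPM in tumours and at most 3.57 in spleens. Cdh1 made up most of that sum, with 58, 32, 44 and 50 counts in tumours. Epcam, which the gate excludes, had 9, 2, 2 and 5 counts there. Markers of type 1 innate lymphoid cells (5 of 5) summed to 477 to 588.8 CPM in tumours and 74.2 to 177.9 in spleens, though Il7r and Cd200r1 of that list overlapped. Lists with 1 listed marker also differed without overlap between tumours and spleens: Pecam1 (CD31, which the gate excludes) was at 130.5 to 184.7 CPM in tumours and 48.2 to 93.0 in spleens, Car2 of the erythroid list at 839.7 to 1124 and 167.3 to 361.3, and Zbtb46 of the dendritic cell list at 11.3 to 21.3 and 1.79 to 5.44. The NK marker sums given above were lower in tumours. The part of these cells and states in the results was not tested.

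**Figure D3:**
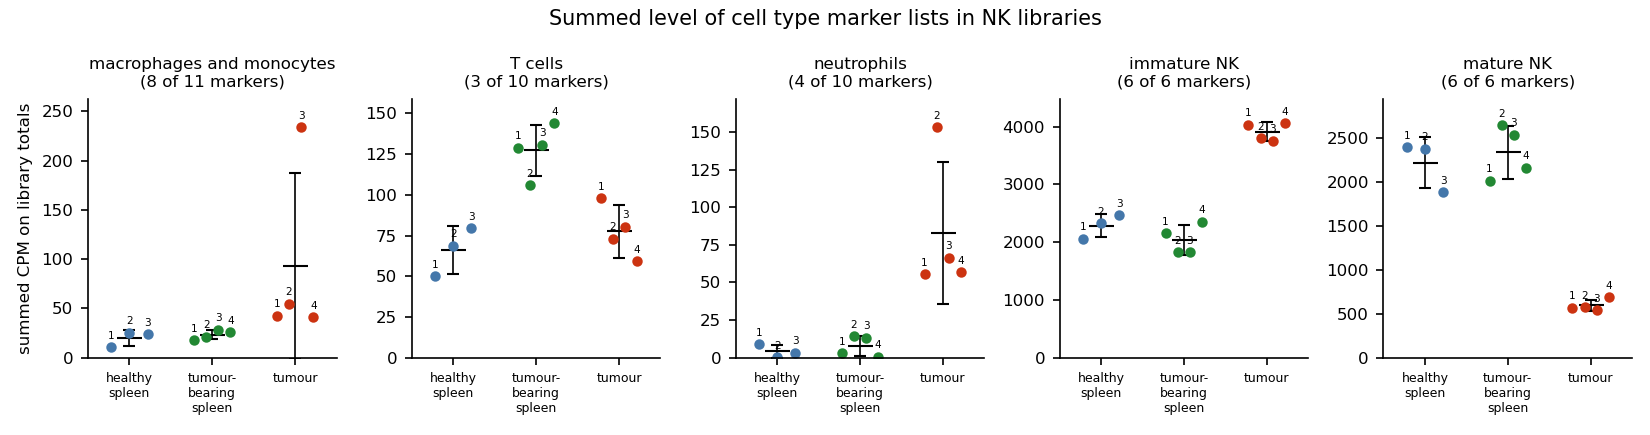
Summed CPM on library totals of 5 marker lists in each NK library, numbered by replicate, with mean and SD. Tumour replicate 3 is highest for macrophage markers at 233.9 CPM, and the T cell list is highest in tumour-bearing spleens, at 105.7 to 143.8 CPM.

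Of the 10 genes of the replication origin and helicase loading that were tested, Mcm6 rose in tumour-bearing spleens and the others were not called there. Of all 11, 6 had their highest mean in tumour-bearing spleens, 4 in tumours (Mcm6, Orc1, Orc4 and Orc6) and Orc5 in healthy spleens. The 11 genes summed to 409.6 ± 9.3 CPM in healthy spleens, 567.4 ± 30.4 in tumour-bearing spleens and 488.8 ± 34.2 in tumours, and the 3 groups did not overlap. On raw totals healthy replicate 1, at 477.1 CPM, was above all 4 tumour libraries. Mcm6, a subunit of the ring, was at 61.6, 51.9 and 51.2 CPM in healthy spleens, 102, 79.8, 89.0 and 106 in tumour-bearing spleens and 86.1, 94.2, 108 and 105 in tumours. Both other groups lay above healthy spleens and overlapped each other. It rose by 0.79 (SE 0.16, adjusted p 0.0122) in tumour-bearing spleens and by 0.86 (SE 0.16, adjusted p 0.000519) in tumours, and between those groups the adjusted p was 0.76. The other ring subunits had tumour-bearing means above the healthy ones and were not called: Mcm5 at 0.72 (SE 0.19, adjusted p 0.0633), Mcm3 at 0.68 (SE 0.18, adjusted p 0.0662), Mcm2 at 0.66 (SE 0.21, adjusted p 0.145), Mcm4 at 0.50 (SE 0.17, adjusted p 0.192) and Mcm7 at 0.22 (SE 0.16, adjusted p 0.696). With the split as a block Mcm2, Mcm3 and Mcm5 were called (adjusted p 0.00182, 0.00253 and 0.000561), in the fit whose p-values may be too small.

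Mcm7 was at 75.5, 84.0 and 89.96 CPM in healthy spleens, 92.2, 87.6, 102 and 108 in tumour-bearing spleens and 71.3, 53.6, 74.6 and 91.3 in tumours. Its tumour libraries were the lowest on average, but 1 of them overlapped the spleens, and the change against tumour-bearing spleens was −0.41 (SE 0.15, adjusted p 0.052), which was called in 9 of 16 alternatives. Among the origin recognition subunits Orc5 fell in tumours. Its levels were 24.7, 24.6 and 31.4 CPM in healthy spleens, 24.4, 19.0, 26.2 and 23.1 in tumour-bearing spleens and 12.3, 14.5, 18.0 and 10.5 in tumours, and every tumour library was below every spleen library. The changes were −0.93 (SE 0.25, adjusted p 0.00841) against healthy and −0.72 (SE 0.23, adjusted p 0.0261) against tumour-bearing spleens. Orc2, Orc4 and Orc6 were called in no comparison, and Orc1 was too low to be tested.

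At the fork, Cdc45 and the GINS subunit Gins2, which complete the active helicase, rose in tumour-bearing spleens, and the sliding clamp Pcna rose in tumours. Cdc45 was at 6.16, 3.75 and 5.78 CPM in healthy spleens, 17.5, 17.9, 17.5 and 16.6 in tumour-bearing spleens and 9.84, 7.25, 14.4 and 12.4 in tumours. The tumour libraries lay between the other groups without overlap. It rose by 1.80 (SE 0.33, adjusted p 0.0052) and by 1.20 (SE 0.36, adjusted p 0.015) against healthy spleens, and the change from tumour-bearing spleens to tumours was −0.60 (SE 0.26, adjusted p 0.0881). Gins2 was at 1.54 to 5.89 CPM in healthy spleens, near the 3-count limit, so that its fold of 1.96 (SE 0.46, adjusted p 0.0331) is imprecise. It was at 13.0 to 15.2 CPM in tumour-bearing spleens and at 4.92 to 17.4 in tumours, where it was called against healthy spleens (1.50, SE 0.50, adjusted p 0.0272). Gins1 did not overlap between the spleen groups (4.13 to 6.16 and 11.7 to 13.0 CPM) and was not called (1.19, SE 0.34, adjusted p 0.0976), and Gins3 and Gins4 were called nowhere.

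Pcna was highest in tumours. The levels were 156, 166 and 153 CPM in healthy spleens, 216, 195, 212 and 184 in tumour-bearing spleens and 252, 314, 271 and 245 in tumours, with no overlap between any 2 groups. The rise was 0.77 (SE 0.14, adjusted p 0.000252) against healthy and 0.42 (SE 0.12, adjusted p 0.0139) against tumour-bearing spleens. The second of these was lost with upper-quartile scaling (0.32, adjusted p 0.0506), without tumour replicate 2 and against tumour-bearing replicates 1 and 2 alone. Of the clamp loader, Rfc2 fell in tumours against tumour-bearing spleens by 0.43 (SE 0.16, adjusted p 0.0483) and lost its call in 8 of 16 alternatives. Its levels overlapped, at 186, 208 and 223 CPM in healthy spleens, 163, 196, 217 and 244 in tumour-bearing spleens and 120.5, 144, 198 and 144 in tumours. Rfc1, Rfc3, Rfc4 and Rfc5 were called in no comparison.

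Both subunits of ribonucleotide reductase, the enzyme that makes deoxynucleotides, rose in tumours against healthy spleens. Rrm1, the large subunit, was at 29.3, 33.7 and 21.5 CPM in healthy spleens, 67.8, 49.7, 32.4 and 50.6 in tumour-bearing spleens and 54.9, 62.3, 58.3 and 60.9 in tumours. The tumour libraries lay close together and above all healthy ones, while the tumour-bearing spleens spread across both. The rise was 1.05 (SE 0.24, adjusted p 0.00227) in tumours, and in tumour-bearing spleens the change of 0.80 (SE 0.23, adjusted p 0.104) was not called. Rrm2, the regulated small subunit, was at 6.16, 4.28 and 7.43 CPM in healthy spleens, 37.4, 16.8, 16.0 and 7.23 in tumour-bearing spleens and 16.4, 13.0, 24.6 and 9.51 in tumours. Tumour-bearing replicate 1 was far above the other 3 of its group, and the change was 1.72 (SE 0.53, adjusted p 0.141) in tumour-bearing spleens and 1.52 (SE 0.54, adjusted p 0.0452) in tumours. The call of Rrm2 was lost in 7 of 13 alternatives, among them leaving out tumour replicate 3.

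Of the cyclins and their partners 3 rose in tumour-bearing spleens. The 7 genes of the class summed to 41.4 ± 11.4 CPM in healthy spleens, 121.1 ± 12.9 in tumour-bearing spleens and 84.7 ± 21.8 in tumours. Cks1b, a small subunit that docks substrates to cyclin-dependent kinases, was at 9.25, 14.4 and 19.8 CPM in healthy spleens, 55.6, 36.8, 32.9 and 44.1 in tumour-bearing spleens and 30.3, 18.8, 40.9 and 26.6 in tumours. It rose by 1.47 (SE 0.29, adjusted p 0.00913) in tumour-bearing spleens and by 1.00 (SE 0.30, adjusted p 0.0161) in tumours against healthy spleens. Ccnb2, a mitotic cyclin, was at 6.16, 5.35 and 12.4 CPM in healthy spleens, 22.1, 25.7, 23.2 and 29.6 in tumour-bearing spleens and 18.9, 10.1, 22.2 and 10.5 in tumours. Only the spleen groups did not overlap, and the rises were 1.66 (SE 0.34, adjusted p 0.0126) and 1.03 (SE 0.37, adjusted p 0.0392) against healthy spleens. From tumour-bearing spleens to tumours neither was called (Cks1b at −0.47, SE 0.24, adjusted p 0.15, and Ccnb2 at −0.63, SE 0.28, adjusted p 0.0982), but without tumour replicate 3 both were, at −0.71 and −0.90 (adjusted p 0.0481 and 0.0399).

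Ccna2, the cyclin of S and G2 phase, was at 0, 3.21 and 1.65 CPM in healthy spleens, which is under the 3-count limit in places, 19.8, 20.1, 7.72 and 10.1 in tumour-bearing spleens and 10.7, 2.9, 15.0 and 5.71 in tumours. Its folds of 2.72 (SE 0.61, adjusted p 0.0276) and 2.13 (SE 0.66, adjusted p 0.0211) against healthy spleens are therefore imprecise. Ccne1, the cyclin of the G1 to S transition, fell in tumours by 0.84 (SE 0.29, adjusted p 0.0332) against tumour-bearing spleens, from 15.2 to 28.3 CPM to 8.56 to 14.8 without overlap. It was at 4.62 to 14.0 CPM in healthy spleens, and the fall lost its call in 7 of 16 alternatives. Cks2 was called nowhere, and Ccnb1 and Ccne2 were too low to be tested.

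Centromere genes moved in both directions inside tumours. Cenpa, the histone H3 variant that marks centromeres, was at 64.7, 67.4 and 67.7 CPM in healthy spleens, 96.8, 96.0, 93.7 and 97.6 in tumour-bearing spleens and 198, 165, 158 and 190.2 in tumours. The groups were stacked without overlap, and the spread within each spleen group was small. It rose by 1.41 (SE 0.14, adjusted p 3e-07) against healthy and by 0.89 (SE 0.12, adjusted p 1.45e-05) against tumour-bearing spleens, both calls held under every alternative, and between the spleens the change was 0.52 (SE 0.14, adjusted p 0.0717). Cenpl, of the inner kinetochore, was at 20.03, 29.4 and 22.3 CPM in healthy spleens, 28.2, 19.5, 23.2 and 14.5 in tumour-bearing spleens and 41.8, 52.2, 48.1 and 51.3 in tumours. The spleen groups overlapped, and all tumour libraries were above them. The rises were 0.96 (SE 0.23, adjusted p 0.00378) and 1.17 (SE 0.21, adjusted p 0.000253), and both also held under every alternative.

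Other centromere genes fell. Cenpx, a histone-fold protein of the Cenpt complex that also serves in DNA repair, was at 171, 203 and 217 CPM in healthy spleens, 239, 181, 240.4 and 251 in tumour-bearing spleens and 137, 116, 167 and 130.3 in tumours. All tumour libraries were below all spleen libraries, with changes of −0.51 (SE 0.16, adjusted p 0.0179) against healthy and −0.71 (SE 0.14, adjusted p 0.000932) against tumour-bearing spleens. Cenpt itself was at 15.4, 17.7 and 22.3 CPM in healthy spleens, 29.0, 36.8, 27.3 and 28.9 in tumour-bearing spleens and 11.5, 18.8, 21.04 and 17.1 in tumours. Its tumour libraries overlapped the healthy ones but not the tumour-bearing ones, against which it fell (−0.83, SE 0.23, adjusted p 0.00924). Cenpn, which binds Cenpa nucleosomes, rose in tumour-bearing spleens by 1.73 (SE 0.42, adjusted p 0.0383) and fell in tumours by 1.22 (SE 0.36, adjusted p 0.0147), but at 1.54 to 3.75 CPM in healthy spleens and 3.01 to 4.92 in tumours its levels are near the 3-count limit. Cenph (−1.31, SE 0.39, adjusted p 0.0154) and Cenpv (−1.20, SE 0.41, adjusted p 0.0338) fell in tumours against tumour-bearing spleens. In tumours they were at 2.46 to 8.42 and 1.45 to 9.51 CPM, in part near the 3-count limit. Their calls were lost in 2 and 6 of 16 alternatives. Cenpb, Cenpj, Cenpm, Cenpo and Cenps were called nowhere, and Cenpe, Cenpi, Cenpk, Cenpp and Cenpq were too low to be tested.

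**Figure D4:**
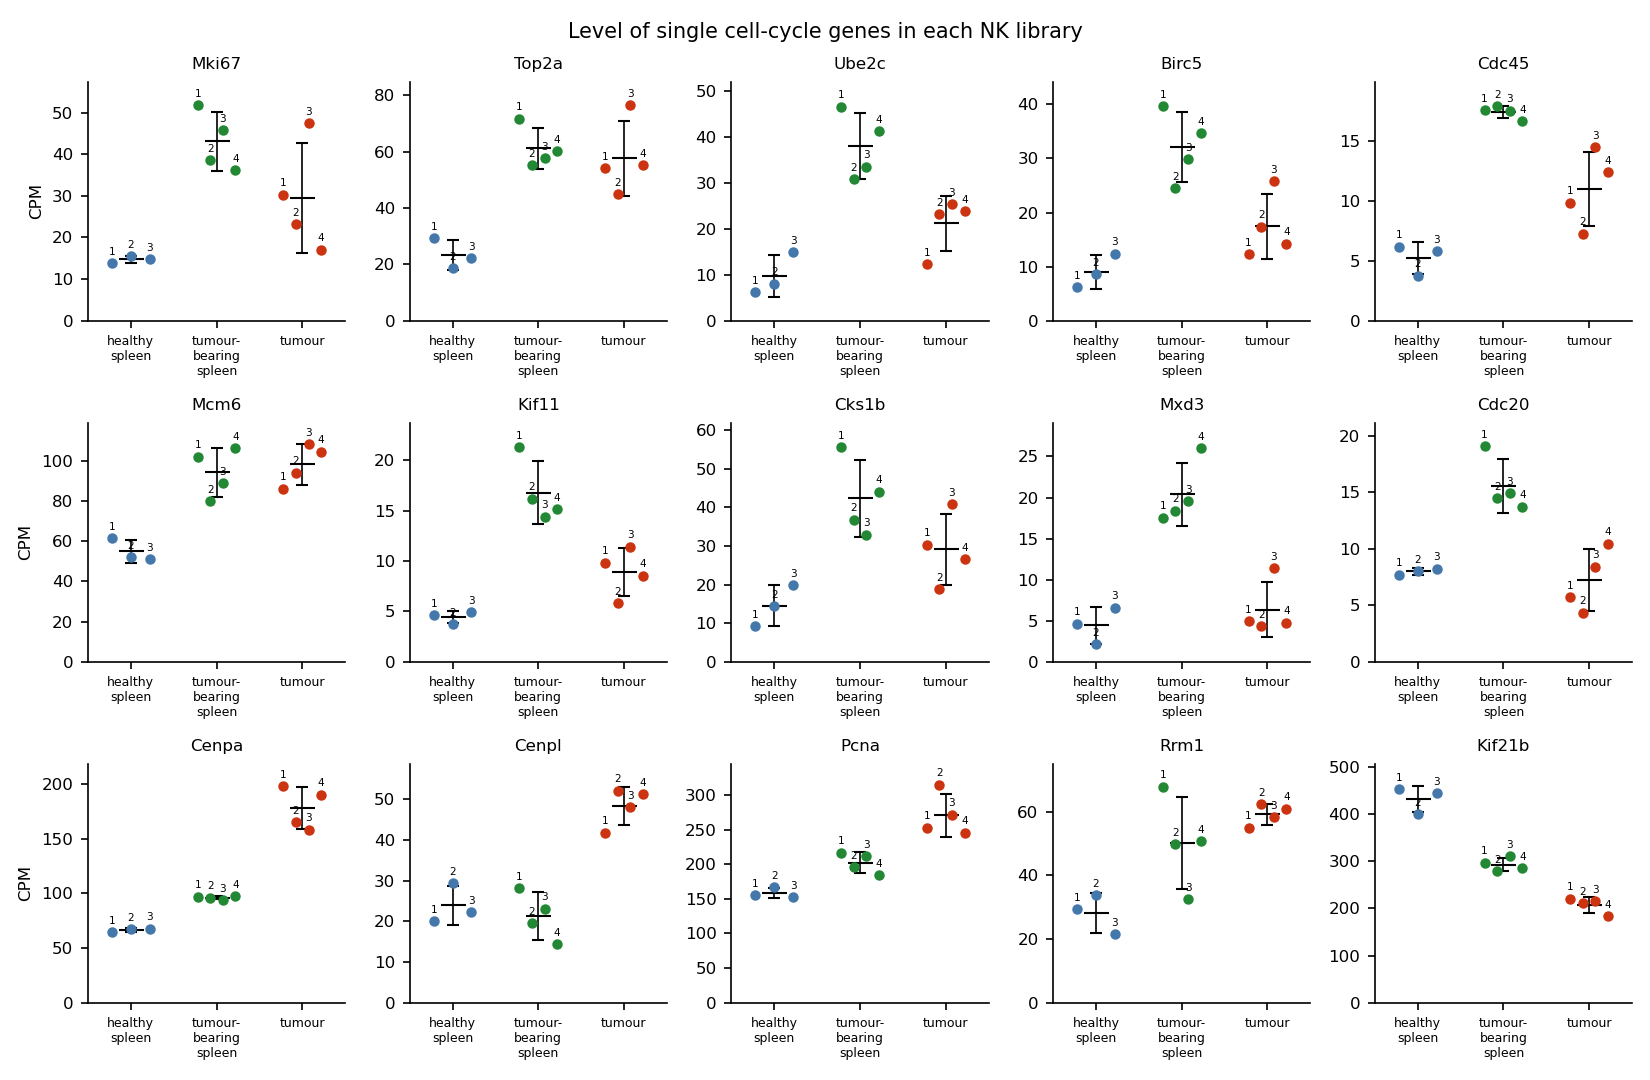
CPM of 15 genes in each NK library, numbered by replicate, with mean and SD. Genes of the top 2 rows have their highest mean in tumour-bearing spleens apart from Mcm6, and Cenpa, Cenpl, Pcna and Rrm1 in tumours, where Cenpa reaches 158.1 to 197.6 CPM.

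Of the mitotic exit machinery, Ube2c, the ubiquitin-conjugating enzyme of the anaphase-promoting complex, rose in tumour-bearing spleens and was lower in tumours than there. It was at 6.16, 8.03 and 14.9 CPM in healthy spleens, 46.5, 30.7, 33.5 and 41.2 in tumour-bearing spleens and 12.3, 23.2, 25.2 and 23.8 in tumours. The tumour-bearing libraries lay above all others. The changes were 1.91 (SE 0.31, adjusted p 0.00187) between the spleens, 1.08 (SE 0.33, adjusted p 0.0193) in tumours against healthy spleens and −0.83 (SE 0.25, adjusted p 0.0169) against tumour-bearing spleens. Cdc20, the activator of the same complex, was at 7.71, 8.03 and 8.25 CPM in healthy spleens, 19.1, 14.5, 14.9 and 13.7 in tumour-bearing spleens and 5.74, 4.35, 8.42 and 10.5 in tumours. Tumours were below tumour-bearing spleens without overlap, with a change of −1.04 (SE 0.29, adjusted p 0.0109), and the change between the spleens of 0.94 (SE 0.31, adjusted p 0.171) was not called. The checkpoint gene Bub3 was at 66.3, 106 and 89.96 CPM in healthy spleens, 97.6, 113, 103 and 102 in tumour-bearing spleens and 134, 69.6, 79.4 and 96.0 in tumours and was called nowhere. Bub1b was at 1.65 to 6.16 CPM in healthy and 8.37 to 11.4 in tumour-bearing spleens without a call (1.85, SE 0.50, adjusted p 0.0712), and Bub1 was too low to be tested.

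The chromosomal passenger complex corrects the attachment of chromosomes to the spindle, and 2 of its members rose in tumour-bearing spleens and were lower in tumours than there. Birc5 (survivin) was at 6.16, 8.56 and 12.4 CPM in healthy spleens, 39.6, 24.6, 29.9 and 34.7 in tumour-bearing spleens and 12.3, 17.4, 25.9 and 14.3 in tumours. Tumour replicate 3 reached the range of the tumour-bearing spleens. The changes were 1.76 (SE 0.31, adjusted p 0.00395) between the spleens, 0.93 (SE 0.34, adjusted p 0.0422) in tumours against healthy spleens and −0.83 (SE 0.26, adjusted p 0.0195) against tumour-bearing spleens. Cdca8 (borealin) was at 8.03 to 12.3, 17.3 to 25.3 and 11.5 to 16.2 CPM in the same order, with changes of 1.17 (SE 0.28, adjusted p 0.0376) between the spleens and −0.72 (SE 0.24, adjusted p 0.0331) in tumours against tumour-bearing spleens. Cdca3, a trigger of mitotic entry, rose in tumour-bearing spleens by 1.64 (SE 0.35, adjusted p 0.0163). The kinase of the complex, Aurkb, was at 1.54 to 5.78 CPM in healthy spleens, near the 3-count limit, and 7.96 to 18.3 in tumour-bearing spleens, and its change missed the threshold (1.55, SE 0.41, adjusted p 0.0631). Cdca5 (sororin, which protects cohesion) was at 1.54 to 5.78 and 7.81 to 13.4 CPM, also without a call (1.74, SE 0.48, adjusted p 0.0826). With the split as a block both were called (adjusted p 0.0109 and 0.00446), in the fit whose p-values may be too small.

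The most abundant genes of this class were called in no comparison. Aurkaip1 was at 214, 335 and 337 CPM in healthy spleens, 242, 259, 330.4 and 300.1 in tumour-bearing spleens and 246, 216, 237 and 222 in tumours. Cdca4, a nuclear protein tied to E2F transcription, was at 37.0, 70.6 and 73.5 CPM in healthy spleens, 78.5, 77.6, 91.6 and 86.8 in tumour-bearing spleens and 91.8, 47.8, 58.9 and 91.3 in tumours. The class sums, at 437.2 ± 90.6, 535.5 ± 52.8 and 419.7 ± 42.8 CPM, are mostly made up of these 2 genes. Aurka, Cdca2 and Cdca7l were also called nowhere, and Cdca7 was too low to be tested.

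Of the spindle motors Kif11 and Kif22 rose in tumour-bearing spleens. Kif11, the motor that pushes the spindle poles apart, was at 4.62, 3.75 and 4.95 CPM in healthy spleens, 21.3, 16.2, 14.4 and 15.2 in tumour-bearing spleens and 9.84, 5.8, 11.4 and 8.56 in tumours, and no 2 groups overlapped. The changes were 1.92 (SE 0.35, adjusted p 0.00446), 1.09 (SE 0.38, adjusted p 0.036) and −0.83 (SE 0.27, adjusted p 0.0279) for tumour-bearing against healthy spleens, tumours against healthy spleens and tumours against tumour-bearing spleens. Healthy replicate 1 held 3 counts of Kif11, so its sizes against healthy spleens are imprecise. Kif22, a motor on chromosome arms, was at 9.25, 9.1 and 9.08 CPM in healthy spleens, 22.9, 21.8, 23.7 and 27.5 in tumour-bearing spleens and 12.3, 8.7, 16.2 and 11.4 in tumours. Its tumour-bearing libraries stood above all others, with a rise of 1.38 (SE 0.27, adjusted p 0.00913) and a fall of −0.91 (SE 0.23, adjusted p 0.00612) in tumours. Kif23, the motor of the central spindle in cytokinesis, had its highest mean in tumours instead. It was at 10.8, 5.35 and 6.6 CPM in healthy spleens, 17.5, 13.4, 11.8 and 18.1 in tumour-bearing spleens and 15.6, 18.8, 29.5 and 17.1 in tumours, and it rose by 1.57 (SE 0.35, adjusted p 0.00196) against healthy spleens, while the change between the spleens was 1.11 (SE 0.35, adjusted p 0.144). Kif20b and Kif2a were called nowhere, and Kif15, Kif18a, Kif18b, Kif20a, Kif2c and Kif4 were too low to be tested.

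Markers of dividing cells also had their highest means in tumour-bearing spleens. Mki67, whose protein Ki-67 coats mitotic chromosomes, was at 13.9, 15.5 and 14.9 CPM in healthy spleens, 51.8, 38.5, 45.8 and 36.2 in tumour-bearing spleens and 30.3, 23.2, 47.5 and 17.1 in tumours. The healthy libraries were close together and below all others, and the tumour libraries spread widest, with replicate 3 highest. It rose by 1.52 (SE 0.29, adjusted p 0.0082) in tumour-bearing spleens and by 1.04 (SE 0.31, adjusted p 0.0147) in tumours against healthy spleens. From tumour-bearing spleens to tumours the change was −0.48 (SE 0.24, adjusted p 0.146), and −0.87 (adjusted p 0.00932) without tumour replicate 3. Top2a, which untangles sister chromatids, was at 29.3, 18.7 and 22.3 CPM in healthy spleens, 71.7, 55.3, 57.6 and 60.03 in tumour-bearing spleens and 54.1, 44.9, 76.4 and 55.1 in tumours. Tumours and tumour-bearing spleens overlapped (adjusted p 0.861), both were above healthy spleens without overlap, and the rises were 1.44 (SE 0.22, adjusted p 0.00111) and 1.39 (SE 0.23, adjusted p 9.47e-05). The rises of Top2a and Ube2c in tumour-bearing spleens were the 2 calls of the 17 in that comparison that held under every alternative.

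Mxd3, a Max-binding repressor expressed in S phase cells, was at 4.62, 2.14 and 6.6 CPM in healthy spleens, 17.5, 18.4, 19.6 and 26.0 in tumour-bearing spleens and 4.92, 4.35, 11.4 and 4.75 in tumours. The tumour-bearing libraries stood alone, above all 7 others. The rise was 2.27 (SE 0.41, adjusted p 0.00488) and the fall in tumours −1.55 (SE 0.34, adjusted p 0.00179), with imprecise sizes since healthy and most tumour libraries were near the 3-count limit. Stmn1, which destabilizes microtubules, fell in tumours by 1.79 (SE 0.51, adjusted p 0.0117), from 5.34, 6.14, 9.78 and 15.2 to 0.82, 1.45, 4.21 and 2.85 CPM, beside 6.16, 3.75 and 8.25 in healthy spleens. All 4 tumour libraries were below the tumour-bearing ones, and 1 was above the lowest healthy one. Nusap1 and Prc1, which bundle spindle microtubules, were called nowhere, and Tpx2 was too low to be tested.

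Of the kinesins of intracellular transport, which share a motor domain with the mitotic ones, Kif21b and Kif3b fell and none rose. The 8 genes summed to 611.6 ± 56.8 CPM in healthy spleens, 457.3 ± 15.5 in tumour-bearing spleens and 372.9 ± 29.8 in tumours, and Kif21b made up most of the sums. Kif21b was at 453, 401 and 444 CPM in healthy spleens, 297, 279.6, 310.4 and 285 in tumour-bearing spleens and 220.5, 212, 215 and 184 in tumours, stepping down without overlap. The changes were −0.56 (SE 0.13, adjusted p 0.0242) between the spleens, −0.50 (SE 0.12, adjusted p 0.00399) in tumours against tumour-bearing spleens and −1.06 (SE 0.13, adjusted p 3.61e-06) against healthy spleens. The first was lost in 6 of 14 alternatives, and the others held in all. Kif3b, of the kinesin-2 motor, fell in tumours by 0.62 (SE 0.21, adjusted p 0.0272) against healthy spleens. Its levels were 33.9, 30.5 and 41.3 CPM in healthy spleens, 31.2, 35.7, 28.8 and 32.5 in tumour-bearing spleens and 22.1, 21.7, 22.2 and 24.7 in tumours, all below the spleens. Against tumour-bearing spleens the change was −0.50 (SE 0.19, adjusted p 0.0539). Kif13b was at 66.3, 49.8 and 57.8 CPM in healthy spleens, 51.8, 65.3, 48.4 and 44.1 in tumour-bearing spleens and 52.5, 78.2, 46.3 and 61.8 in tumours and was called nowhere, as were Kif16b, Kif1b and Kif5b, and Kif19a and Kif5c were too low to be tested.

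The 19 genes that failed the filter on low counts had 24 to 92 counts each over all 11 libraries. Their means were highest in tumour-bearing spleens for 15 of the 19 and lowest in healthy spleens for 12. The table lists no gene whose maximum was under 6 counts, so genes this low were listed through their highest library. Healthy spleens had the fewest libraries, with the shallowest among them. The tally and the sums of these genes therefore cannot test a direction, and no share over other low genes was taken. Their sums on library totals were 17.5 to 62.5 CPM in healthy spleens, 60.0 to 91.7 in tumour-bearing spleens and 30.5 to 61.5 in tumours. With no filter all 90 genes were tested, and 17 rose and 1 fell in tumour-bearing against healthy spleens, with a median of 0.73.

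Cell-cycle genes outside the 90 were read from 3 lists (kinases, inhibitors and E2F control, other replication genes, and other mitosis genes) with 137 genes, of which 121 were listed and 95 tested. In tumour-bearing against healthy spleens 10 rose and none fell (10.5%, against 1.58% of all genes), and the median was 0.373. At an unadjusted p under 0.05, 36 of the 95 were higher and none lower, against 571 and 380 of the 8471 genes tested. In tumours against tumour-bearing spleens 8 rose and 16 fell (25.3%, against 29% of all genes), with a median of −0.206, and against healthy spleens 21 rose and 10 fell (32.6%, against 30.5%), with a median of 0.325. In each of the 3 comparisons up to 8 called genes with the smallest adjusted p are named.

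The largest change among these 95 genes was in Cdkn1a, the inhibitor p21 that binds cyclin-dependent kinases and Pcna and is induced by p53 and by stress signals. It was at 24.7, 25.7 and 19.0 CPM in healthy spleens, 23.6, 28.5, 27.8 and 25.3 in tumour-bearing spleens and 449, 582, 434 and 453 in tumours. The spleens lay together and the tumour libraries far above them. It rose by 4.17 (SE 0.15, adjusted p 7.29e-13) against tumour-bearing and by 4.36 (SE 0.18, adjusted p 4.86e-12) against healthy spleens. Cdk6, a kinase of G1 phase, rose in tumours too, by 1.54 (SE 0.23, adjusted p 3.31e-05) against tumour-bearing spleens, from 19.0 to 38.1 to 56.5 to 88.4 CPM. The licensing factor Cdt1 rose by 0.88 (SE 0.15, adjusted p 0.000201) and Dbf4, the activator of the kinase Cdc7 that fires origins, by 1.39 (SE 0.21, adjusted p 4.82e-05). In the other direction Racgap1, the partner of Kif23 in cytokinesis, fell by 1.11 (SE 0.15, adjusted p 9.66e-06). E2f2, an activating E2F factor (−1.67, SE 0.22, adjusted p 1.01e-05), the G1 cyclin Ccnd3 (−0.82, SE 0.14, adjusted p 0.000147) and Rnaseh2c, a subunit of the enzyme that removes RNA from DNA (−0.69, SE 0.14, adjusted p 0.000674), fell as well. These 8 calls held under every alternative.

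Against healthy spleens the same fit called Cdk6 (2.55, SE 0.29, adjusted p 1.61e-06), Cdt1 (1.11, SE 0.17, adjusted p 6.98e-05), Dbf4 (1.52, SE 0.25, adjusted p 9.75e-05) and Racgap1 (−0.94, SE 0.16, adjusted p 0.000165). The lamin Lmnb1 rose by 1.42 (SE 0.21, adjusted p 3.06e-05), Lin54, the DNA-binding subunit of the complexes that read CHR elements, by 2.05 (SE 0.38, adjusted p 0.000344), and Pttg1 (securin, which holds back the cleavage of cohesin) by 1.34 (SE 0.25, adjusted p 0.000364). Lin54 was at 9.25, 4.82 and 8.25 CPM in healthy spleens, 16.8, 13.4, 5.66 and 8.68 in tumour-bearing spleens and 23.8, 40.6, 28.3 and 25.7 in tumours, where every library was above every spleen library.

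Between the spleens the named genes serve the spindle, S phase and G1 phase. The tubulins Tuba1b and Tubb5 rose by 0.73 (SE 0.15, adjusted p 0.0102) and 0.72 (SE 0.17, adjusted p 0.0279), and the G1 cyclin Ccnd2 by 0.74 (SE 0.15, adjusted p 0.0132). Ccnd2 was at 421, 276 and 314 CPM in healthy spleens, 537, 612, 542 and 539 in tumour-bearing spleens and 376, 443, 390.2 and 442 in tumours, so that the tumour-bearing libraries lay above all others. The kinetochore genes Spc24 and Ndc80 rose by 1.99 (SE 0.41, adjusted p 0.017) and 1.87 (SE 0.41, adjusted p 0.0208). Their healthy levels were 3.08 to 16.5 and 3.21 to 4.62 CPM, in part near the 3-count limit. Uhrf1, which carries DNA methylation through replication, rose by 3.00 (SE 0.69, adjusted p 0.0279), the cyclin Ccnf by 2.03 (SE 0.47, adjusted p 0.0279) and the spindle protein Ckap2l by 2.16 (SE 0.53, adjusted p 0.0425), from healthy levels near the 3-count limit, so their sizes are imprecise. Each of these 8 calls was lost without healthy replicate 2, healthy replicate 3 or both.

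**Figure D5:**
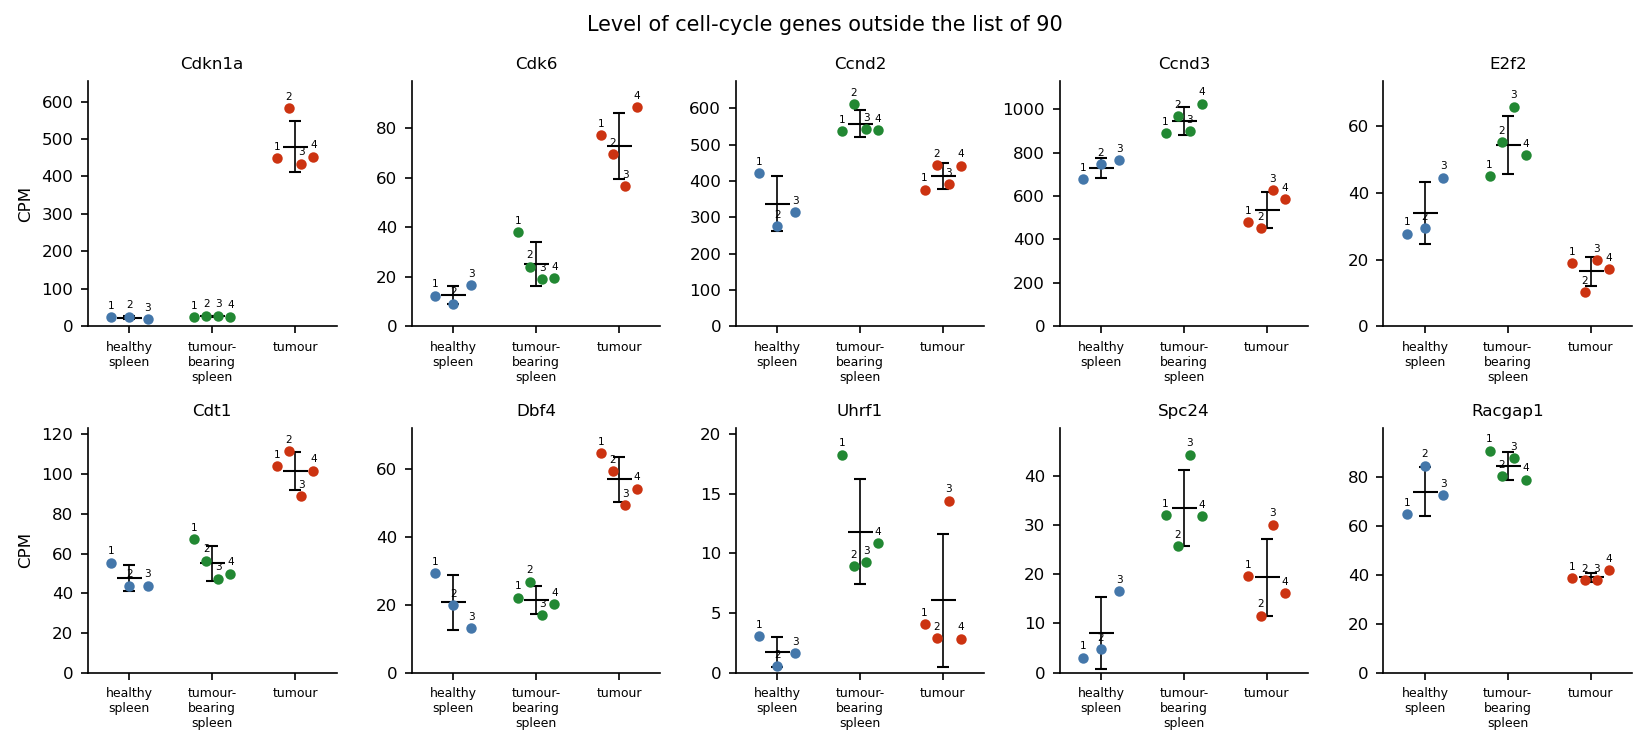
CPM of 10 cell-cycle genes outside the list of 90 in each NK library, numbered by replicate, with mean and SD. Cdkn1a reaches 434.1 to 582.5 CPM in tumours and at most 28.5 in spleens, and E2f2, Ccnd3 and Racgap1 are lowest in tumours.

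Counting limits which of these genes can be read apart from their neighbours. Whether strand was used in counting is not given in the sources used here, and exons of Ccna2, Cdc20, Cdc45, Cdca8, Cenpt, Gins2, Kif22, Mxd3, Rfc2 and Ube2c overlap those of a gene on the other strand (Exosc9 for Ccna2, Elovl1 for Cdc20, Ufd1 for Cdc45, Tnnc2 for Ube2c). Orc5, Stmn1 and Top2a overlap a predicted gene on the same strand, and pseudogenes named after Ccnb1, Ccnb2, Kif22, Kif4 and Pcna could share their reads, as could the tubulin genes with their near-identical relatives. These values are uncertain to that extent.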

How the data were processed

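The authors deposited unnormalised counts of reads on genes, made from 3' end libraries of polyA RNA of 11 NK samples and 3 stromal (sCAF) samples; per the submitters' processing notes bcl2fastq, STAR 2.4.2a, HTSeq and the build mm10 were used. Their options, the annotation, the use of strand and of molecular identifiers are not given in the sources used here. The lowest maximum of a listed NK gene was 6 counts, so the table lists no gene that was low throughout. Where 2 column names were joined by spaces, the columns were read by position.

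The NK counts were tested with edgeR 4.0.16 in R 4.3.3: genes were filtered by group with filterByExpr (8471 of 10210 kept), scaled by TMM and fitted with 1 mean per group over all 11 libraries, with robust quasi-likelihood tests and Benjamini-Hochberg adjustment at 0.05. The SE is the size of the log2 fold change divided by the root of its F value. CPM use the same scaling. The steps were tested on simulated counts. Alternatives were RLE and upper-quartile scaling, no filter, DESeq2 1.42.0, only the compared groups, a replicate block, the spleen split as a block, tumour-bearing replicates 1 and 2 or 3 and 4 alone, and each library left out. Among the 15 pairs of replicates within groups none agreed within sampling noise (chi-square per degree of freedom from 1.995 to 7.372).

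The members and all gene lists were chosen with earlier results of these data known. Every called member is named with its log2 fold change, SE and adjusted p. Values in each library are given for up to 10 members with the smallest adjusted p in a comparison and for the 1 or 2 with the highest means in a role, uncalled members are named where they define a role, and of other lists up to 8 called genes a comparison are named. Library totals (559688 to 1966963 counts) limit precision: the median member had 204 counts over all libraries. Promoter windows came from RefSeq (GRCm38.p6) and gene overlaps from GENCODE M21.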

Additional observations from a re-analysis of the deposited data

Results flagged for a closer look

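Of 90 groups of 4 libraries examined for a library far from the others, 5 had one, and chance alone gives about 1 in 20. Cdca3 was at 13.95 CPM in tumour-bearing replicate 2 and at 22.13 to 23.63 in the other 3. Cenph was at 22.1 CPM in tumour-bearing replicate 1 and at 10.81 to 12.28 in the others. Mxd3 was at 11.42 CPM in tumour replicate 3, the library with the highest macrophage markers, and at 4.35 to 4.92 in the other tumour libraries. Ube2c was at 12.3 CPM in tumour replicate 1 and at 23.19 to 25.25 in the others. The 82 genes without the transport kinesins summed to 2773.5 CPM in tumour-bearing replicate 2 and to 3019.5 to 3047.6 in the others, and all 4 values were above the 1992.4 to 2296.9 CPM of the healthy spleens.

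The tumour stromal libraries, which enter no comparison of the report, also held RNA of these genes. The 85 genes listed in both tables summed to 3993.6 ± 462 CPM on library totals (SD, n = 3, range 3468.8 to 4338.9), beside 2611.2 to 2905.2 in tumour NK libraries, 3307.2 to 3543.6 in tumour-bearing spleens and 2893.7 to 3062.4 in healthy spleens. The tables list different genes and were counted separately, so the values are set side by side and were not tested.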

How the results depend on the processing

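Calls depended more on single libraries than their directions did: no called change reversed under any alternative. Leaving out 1 library at a time gave 3 to 17 higher and 0 to 1 lower genes in tumour-bearing against healthy spleens, 7 to 17 higher and 1 to 6 lower in tumours against healthy spleens, and 2 to 3 higher and 11 to 19 lower in tumours against tumour-bearing spleens. The lower gene between the spleens, Kif21b, lost its call without any 1 healthy library, without tumour-bearing replicate 2 or 4, and in the fit of the 2 spleen groups alone (0 lower genes). The spleen split as a block gave 30 higher genes between the spleens, with p-values that may be too small because the split was read from these libraries. Against healthy spleens tumours had 7 lower genes with upper-quartile scaling and 7 with no filter. Against tumour-bearing spleens tumours had 11 lower genes with DESeq2, 8 lower genes when only replicates 1 and 2 of those spleens were used and 5 higher genes when only replicates 3 and 4 were. The summed CPM of all 90 genes on raw totals was 2983.9 in healthy spleens and 2765 in tumours, where TMM gave 2791.9 and 2978.4. Without the transport kinesins raw totals gave 2326.7 and 2418, and TMM gave 2180.3 and 2605.5.

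With a replicate block, 14 genes were higher and 1 lower between the spleens, 16 and 6 in tumours against healthy spleens, and 3 and 18 against tumour-bearing spleens. In that last comparison 17.1% and 13.9% of all genes were. Same-numbered samples did not deviate together throughout (correlations −0.047 to 0.279 for tumours and tumour-bearing spleens, −0.186 to 0.042 for tumours and healthy spleens, −0.346 to 0.494 for the spleens), and the numbers were not read as a pairing. For tumours and tumour-bearing spleens the highest values were those of replicates 2 (0.279) and 4 (0.205). The highest with unlike numbers was 0.153, so these few samples cannot show that a pairing is absent. Depth limits the low genes: with 3 counts worth up to 5.36 CPM, the sizes for Ccna2, Gins2, Cenph, Cenpn, Cenpv, Mxd3 and Stmn1 are imprecise. Healthy replicate 1 also held only 3 counts of Kif11 and Cdca3 and 4 of Cdc45, Birc5, Ccnb2, Ube2c and Rrm2. Their sizes against healthy spleens are limited by this too.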
